A study of Mus musculus with 6 samples.

Results

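Bnip3, Bnip3l, Ndrg1, Ddit4, Adm, Ankrd37, Fam162a, Ero1l, Higd1a and Kdm3a are hypoxia target genes that do not code for glycolytic enzymes or glucose transporters. They were taken by name from the table of 53801 genes, where each of the 10 names was found once. All 10 had enough reads to be among the 15133 genes tested. Their names were chosen with earlier results of these data known, so they are described here beside all genes and were not tested as a list.

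In cells with enough oxygen, prolyl hydroxylases mark the alpha subunits of the hypoxia-inducible factors (HIF) for removal by the VHL protein. When oxygen falls, the alpha subunit persists, pairs with ARNT and binds short sites with a CGTG core near its target genes. Targets outside glycolysis include genes for mitophagy, redox balance of the endoplasmic reticulum, mitochondrial respiration, growth control, vascular signals and histone demethylation. Hypoxia is a known feature of poorly perfused solid tumors, in which stromal cells and tumor cells share the same low-oxygen regions.

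RNA was sequenced from PDPN+PDGFRα+ stromal cells sorted from MO5 tumors, which grow from a B16 melanoma line carrying ovalbumin. The 3 DTR libraries came from ADAM12-DTR mice, in which a bacterial artificial chromosome with Adam12 sequences drives the diphtheria toxin receptor, so that diphtheria toxin (DT) kills ADAM12+ cells. The 3 Ctrl libraries came from littermates without the transgene. Both groups received DT, on the C57Bl/6 background, and the labels give no age and do not say whether a library holds the cells of 1 animal or several. Cells positive for CD45 or CD31 were gated out in the sort, and the population sequenced may hold ADAM12- cells and surviving ADAM12+ cells alike. The comparison asks how cells sorted by these stromal markers differ in tumors depleted of ADAM12+ cells.

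The libraries held 22339635 to 34271929 counts on genes. CPM are a gene's counts relative to its library's total, and 3 counts correspond to 0.0875 to 0.134 CPM before scaling. All levels of genes below are CPM scaled by TMM factors. Adam12 itself measured 190 ± 22.1 CPM in Ctrl and 142 ± 27.5 CPM in DTR (SD, n = 3 each), with every DTR library below every Ctrl library (log2 fold change -0.42, adjusted p = 0.602 by the quasi-likelihood test of edgeR, Benjamini-Hochberg adjusted). The adjusted p for Adam12 was 0.0296 by DESeq2's Wald test with an offset for genomic span, and at most 0.852 over the other alternatives. The sorting markers Pdgfra and Pdpn were detected in all 6 libraries. The summed level of 8 melanoma markers was 17500 to 19900 CPM in Ctrl and 16400 to 19200 CPM in DTR. This was above the sum of 8 fibroblast markers in every library, although the sort was for stromal markers. Such sums are not scaled by gene length and do not give the share of cells of each type, and purity was not tested. RNA of the 10 genes from tumor cells and from stromal cells cannot be told apart in these libraries. That fibroblast sum was 13600, 5220 and 5150 CPM in Ctrl replicates 1 to 3 and 10800, 5560 and 14100 CPM in DTR replicates 1 to 3. Fewer cells of a type and less RNA per cell cannot be told apart in such bulk libraries. Nothing in the labels says that the replicates are separate animals, so p-values measure the spread between these libraries, which may be technical.

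The sequences before the start sites are shown for 6 of the genes, because the HIF core sites sit in windows of this kind and because these genes span the range of the comparison, with lower DTR means for Bnip3, Ero1l and Fam162a, a small difference for Ddit4 and nearly equal means for Adm and Kdm3a. They come from RefSeq on GRCm38.p6, run 5′ to 3′ on the strand of the gene, and are limited to the stretch of the 250 bases before the start site that lies outside annotated exons. Capitals mark matches to ACGTG or GCGTG on either strand, including matches that overlap each other.

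Bnip3, chr7:138909520-138909756, minus strand: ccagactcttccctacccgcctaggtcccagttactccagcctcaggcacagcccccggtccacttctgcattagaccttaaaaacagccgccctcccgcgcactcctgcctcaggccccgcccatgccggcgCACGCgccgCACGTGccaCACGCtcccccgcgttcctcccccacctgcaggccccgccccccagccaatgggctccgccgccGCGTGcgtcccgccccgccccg

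Ero1l, chr14:45318573-45318702, minus strand: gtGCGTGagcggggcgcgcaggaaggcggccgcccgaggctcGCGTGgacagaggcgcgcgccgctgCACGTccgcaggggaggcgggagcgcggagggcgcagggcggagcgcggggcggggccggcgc

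Fam162a, chr16:36071595-36071684, minus strand: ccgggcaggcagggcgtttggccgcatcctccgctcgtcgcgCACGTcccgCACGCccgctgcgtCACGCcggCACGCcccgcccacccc

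Ddit4, chr10:59951835-59952020, minus strand: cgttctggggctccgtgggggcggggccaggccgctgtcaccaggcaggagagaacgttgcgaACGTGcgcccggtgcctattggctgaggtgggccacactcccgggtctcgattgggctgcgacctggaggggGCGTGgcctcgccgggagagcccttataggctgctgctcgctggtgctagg

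Adm, chr7:110627407-110627656, plus strand: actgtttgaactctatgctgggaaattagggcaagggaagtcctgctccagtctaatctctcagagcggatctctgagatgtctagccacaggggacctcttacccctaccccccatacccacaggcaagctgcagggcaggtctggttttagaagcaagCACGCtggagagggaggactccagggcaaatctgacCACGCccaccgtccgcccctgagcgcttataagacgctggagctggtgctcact

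Kdm3a, chr6:71632991-71633167, minus strand: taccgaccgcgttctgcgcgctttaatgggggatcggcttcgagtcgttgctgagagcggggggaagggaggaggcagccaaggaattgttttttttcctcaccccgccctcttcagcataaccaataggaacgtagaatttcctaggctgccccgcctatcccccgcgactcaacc

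Over the full 250 bases before the start site, 8 of the 10 genes had an entry in the RefSeq table, and each of these 8 held a match in at least 1 of its windows. Counted by window, 8 of their 10 windows held a match, beside 38.6% of 32851 windows of that length over all genes, with ACGTG in 16.6% and GCGTG in 28.2%. The 10 windows were 48.4% to 80.8% G or C, and 2 of the Kdm3a windows overlap each other. The share with a match among windows of like base composition was not measured, so an excess over other genes was not tested. Bnip3 held 2 matches to ACGTG and 3 to GCGTG, and its ACGTG matches overlap as 1 palindrome, CACGTG. Fam162a held 1 and 5, Ero1l 1 and 2, and Ddit4 1 and 1. Ankrd37 held 2 and 2. Adm and Higd1a each held 0 and 2, and the 2 matches in Higd1a overlap. Kdm3a held 1 match to GCGTG in 1 of its 3 windows, in a part that is exonic and therefore not printed above. A match describes the letters only. Matches were present in genes with a lower mean in DTR, such as Bnip3, Ero1l, Fam162a and Higd1a. They were also present in Adm and Kdm3a, whose groups had nearly the same mean. Any relation of the matches to the difference between groups was not tested.

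None of the 10 genes passed the test between DTR and Ctrl. By edgeR (quasi-likelihood, Benjamini-Hochberg over 15133 genes), 0 of 10 had an adjusted p under 0.05, beside 0.0% of all tested genes, and their lowest adjusted p was 0.602. At an unadjusted p under 0.05 there were 3 of the 10, Bnip3, Ero1l and Higd1a, each lower in DTR, beside 7.92% of all genes, 4.11% lower and 3.81% higher. DESeq2's Wald test also called 0 of 10, and called 0.151% of the genes to which it gave an adjusted p. Its unadjusted p was under 0.05 for Bnip3, Fam162a, Ero1l and Higd1a, 4 in all, each lower in DTR. In either direction this held for 1114 of the 15133 genes tested above. Over all 26748 genes with a DESeq2 p, many of them low, it held for 4.89%. By sign, 8 genes were lower and 2 higher in DTR, while 50.4% of all genes were lower, and the median log2 fold change was -0.27 beside 0.00 over all genes. In Fam162a, Ero1l and Higd1a every DTR library was below every Ctrl library, which holds for 8.19% of all genes, and 0 of the 10 had every DTR library above every Ctrl library (6.3% of all genes).

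**Figure D1:**
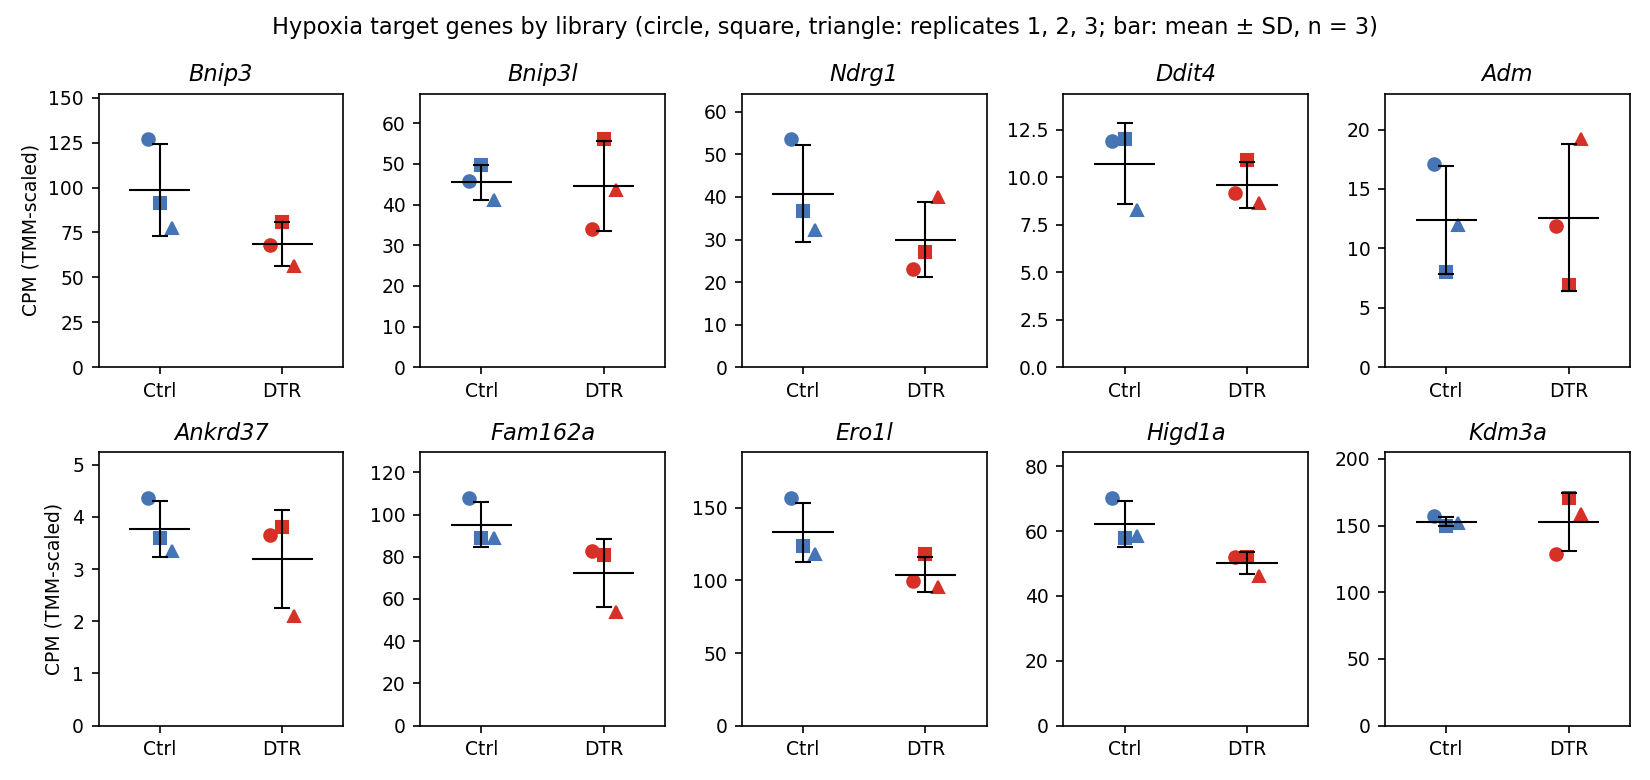
Each panel plots the level of 1 gene in CPM (vertical axis, from 0) in the 3 Ctrl and 3 DTR libraries, with circle, square and triangle for replicates 1, 2 and 3 and bars for the mean ± SD. Fam162a, Ero1l and Higd1a do not overlap between groups, while Bnip3l, Adm and Kdm3a have nearly equal means.

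Bnip3 codes for a BH3-domain protein of the outer mitochondrial membrane that recruits LC3 in hypoxia-induced mitophagy. Its gene lies on chr7:138890836-138909519, minus strand (GRCm38). Its level was 127, 91.2 and 77.4 CPM in Ctrl replicates 1, 2 and 3, and 68.1, 80.8 and 56.6 CPM in DTR replicates 1, 2 and 3. The groups overlapped at a single point, where DTR replicate 2 was above Ctrl replicate 3, and Ctrl replicate 1 stood highest. The means were 98.7 ± 25.8 and 68.5 ± 12.1 CPM (SD, n = 3 each), a log2 fold change of -0.53 with a 95% interval of -0.99 to -0.06. This did not pass the adjustment over all genes (adjusted p = 0.602, edgeR quasi-likelihood, Benjamini-Hochberg), and the two-sided exact permutation test of 3 libraries against 3, which cannot go below 0.1, gave p = 0.2. Without Ctrl replicate 1 the log2 fold change of Bnip3 was -0.30. Of the 50-base words in Bnip3 transcripts, 16.5% also occur in other genes, mainly its pseudogenes, so a part of its reads may have been counted elsewhere or not at all.

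Bnip3l codes for NIX, the closely related mitophagy receptor. It lies on chr14:66985239-67008877, minus strand, and measured 45.9, 49.7 and 41.0 CPM in Ctrl replicates 1 to 3 and 33.9, 56.1 and 43.7 CPM in DTR replicates 1 to 3. The lowest and the highest of the 6 values were both in DTR. Its log2 fold change was -0.03 (95% interval -0.45 to 0.39, adjusted p = 0.969, edgeR quasi-likelihood, Benjamini-Hochberg). A shared-word fraction of 20.8%, with the pseudogene Bnip3l-ps, makes its counts uncertain in the same way.

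The ratio of Bnip3 to Bnip3l counts within a library does not depend on the scaling between libraries. This ratio was 2.77, 1.84 and 1.89 in Ctrl and 2.01, 1.44 and 1.29 in DTR. The groups overlapped, since DTR replicate 1 was above Ctrl replicates 2 and 3, and the log2 difference was -0.45 (exact permutation test, p = 0.3, adjusted over 9 such ratios 0.45). The pair was not shown to differ from each other between the groups.

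The other mitophagy receptor and LC3 genes, 16 tested of 17 listed, had a median log2 fold change of -0.15, with 13 lower and 3 higher, and 0 passed the adjusted test. At an unadjusted p under 0.05, 2 were lower (4.11% of all genes) and 1 was higher (3.81% of all genes). They ranged from Map1lc3a, which codes for an LC3 protein, at -0.34 to Park2, the ubiquitin ligase parkin, at 0.91. Park2 was low, at 4.29 ± 1.39 CPM in Ctrl and 8.09 ± 2.17 CPM in DTR. Among the other genes for BH3-only proteins, 6 tested of 8, the median was -0.03, from Bad at -0.14 to Bmf at 0.20.

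Fam162a codes for a mitochondrial protein linked to hypoxia-induced cell death, and lies on chr16:36043761-36071594, minus strand. It measured 108, 88.9 and 89.1 CPM in Ctrl replicates 1 to 3 and 82.6, 80.8 and 53.7 CPM in DTR replicates 1 to 3. All DTR values were below all Ctrl values, with DTR replicate 3 well below the other 5 libraries. The means of 95.2 ± 10.7 and 72.3 ± 16.2 CPM (SD, n = 3 each) gave a log2 fold change of -0.40 (95% interval -0.79 to 0.00, adjusted p = 0.629, edgeR quasi-likelihood, Benjamini-Hochberg). The exact permutation test gave p = 0.1, the smallest it can give here. The estimate for Fam162a was -0.22 when DTR replicate 3 was left out.

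Higd1a codes for a small protein of the inner mitochondrial membrane that acts on the respiratory chain, and lies on chr9:121848563-121858362, minus strand. Its level was 70.3, 57.7 and 58.4 CPM in Ctrl and 52.1, 52.0 and 46.2 CPM in DTR, in replicate order. No DTR library reached the lowest Ctrl library, and the spread within DTR was small. The log2 fold change of -0.31 had a 95% interval of -0.57 to -0.05 (adjusted p = 0.602, edgeR quasi-likelihood, Benjamini-Hochberg), and the exact permutation p was 0.1. Higd2a, a related gene, had a log2 fold change of -0.05, which was -0.11 without Ctrl replicate 1 and 0.00 without Ctrl replicate 2. Higd1b and Higd1c were listed at 0 in every library and were not tested. The count ratio of Higd1a to Higd2a overlapped between groups (3.77 ± 0.753 in Ctrl, 3.12 ± 0.233 in DTR, exact permutation test, n = 3 each, p = 0.2).

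Ero1l, also called Ero1a, codes for the oxidase that passes oxidizing equivalents to protein disulfide isomerase in the endoplasmic reticulum. From chr14:45283087-45318771, minus strand, it gave 157, 124 and 118 CPM in Ctrl replicates 1 to 3 and 99.6, 118 and 95.7 CPM in DTR replicates 1 to 3. The groups did not overlap, but only just, since Ctrl replicate 3 and DTR replicate 2 were the same to 3 digits. The means were 133 ± 20.6 and 104 ± 11.9 CPM (SD, n = 3 each). Without Ctrl replicate 1 its log2 fold change was -0.21. With all libraries it was -0.35, with a 95% interval of -0.65 to -0.04 (adjusted p = 0.602, edgeR quasi-likelihood, Benjamini-Hochberg). Its paralog Ero1lb, at 5.99 ± 1.09 CPM in Ctrl and 5.85 ± 1.47 CPM in DTR, had a log2 fold change of -0.03. The 9 other genes of oxidative folding in the endoplasmic reticulum, Ero1lb included, had a median of -0.05. They ranged from the disulfide isomerase P4hb at -0.26 to Pdia3 at 0.02. Of the 9, 0 passed the adjusted test and 1 was lower at an unadjusted p under 0.05 (4.11% of all genes). Their median was -0.15 without DTR replicate 1 and also by DESeq2 with the span offset.

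Ndrg1, a stress-responsive gene linked to growth arrest and differentiation, lies on chr15:66929318-66969640, minus strand. It measured 53.6, 36.7 and 32.2 CPM in Ctrl replicates 1 to 3 and 23.0, 27.0 and 40.0 CPM in DTR replicates 1 to 3. DTR replicate 3 was above 2 of the 3 Ctrl libraries, so the groups overlapped. The log2 fold change of -0.45 had a 95% interval of -1.02 to 0.13 (adjusted p = 0.662, edgeR quasi-likelihood, Benjamini-Hochberg). With 1 library left out in turn it ran from -0.71 without DTR replicate 3 to -0.20 without Ctrl replicate 1. Its paralogs Ndrg2, Ndrg3 and Ndrg4 had log2 fold changes of -0.04, -0.12 and 0.31, and 0 of the 3 passed the adjusted test. Ndrg3 was at -0.03 without Ctrl replicate 2 and -0.24 without Ctrl replicate 1, and Ndrg4 was at 0.13 without DTR replicate 3 and 0.50 without Ctrl replicate 1.

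Ddit4 codes for REDD1, which restrains mTORC1 through the TSC complex, and lies on chr10:59949669-59951834, minus strand. Its level was 11.9, 12.0 and 8.29 CPM in Ctrl and 9.15, 10.9 and 8.63 CPM in DTR, in replicate order. All DTR values lay within the Ctrl range, and the log2 fold change was -0.16 (95% interval -0.63 to 0.30, adjusted p = 0.84, edgeR quasi-likelihood, Benjamini-Hochberg). Its estimate ran from -0.32 without Ctrl replicate 3 to -0.08 without Ctrl replicate 2. Other genes that restrain mTORC1, 7 tested of 8, had a median of -0.05, from Sesn2 at -0.17 to Deptor at 0.13. Since Ddit4 also responds to ATF4, the list of Atf4 and its targets was set beside it. Of these 6 genes, 5 were lower in DTR and the median was -0.18, from Ddit3 at -0.47 to Atf3 at 0.53. That median was -0.03 without Ctrl replicate 1 and -0.32 without DTR replicate 3. Atf3 was 121 CPM in DTR replicate 3 and 29.4 to 66.6 CPM elsewhere. None of these list members passed the adjusted test.

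Adm codes for adrenomedullin, a secreted peptide that dilates and stabilizes vessels, and lies on chr7:110627661-110629820, plus strand. Its 3 Ctrl values were 17.1, 7.99 and 12.0 CPM, and its 3 DTR values were 11.9, 6.88 and 19.2 CPM. Adm spread more within each group than it differed between them, with a log2 fold change of 0.03 and a 95% interval of -0.88 to 0.93 (adjusted p = 0.986, edgeR quasi-likelihood, Benjamini-Hochberg). The interval is the widest of the 10. Leaving out 1 library in turn took the log2 fold change of Adm from -0.40 to 0.33, so its direction was not determined.

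The level of Adm followed the fibroblast marker sum over the 6 libraries (Pearson's r = 0.84) and ran against the melanoma marker sum (r = -0.81). These are descriptions over 6 libraries that share both groups and the scaling. Ctrl replicate 1 and DTR replicate 3, which had the highest fibroblast sums, also had the highest Adm. The part of this in the comparison of Adm was not tested beyond a fit with a fibroblast-to-melanoma covariate, chosen after seeing the data, which gave a log2 fold change of -0.37. Among genes of the adrenomedullin system the receptor gene Calcrl had a log2 fold change of 0.40. The receptor-activity-modifying genes Ramp1, Ramp2 and Ramp3 were at 0.27, -0.22 and -0.48. Their estimates rest on single libraries, since Ramp1 turned to -1.20 without DTR replicate 1, Ramp3 turned to 0.58 without Ctrl replicate 3 and Ramp2 was at -0.04 without DTR replicate 2. The scavenger receptor gene Ackr3 was at 0.82 and Pam, which codes for the amidating enzyme, at 0.27. When DTR replicate 3 was left out, Ackr3 was at 0.25, Pam at -0.03 and Calcrl at -0.12, and the median of the 6 genes was -0.07 in place of 0.27. With the replicate block and the span offset together this median was -0.03. None of these 6 passed the adjusted test, and Ramp1 and Ramp3 were near 1 CPM.

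Ankrd37, a gene for an ankyrin-repeat protein with a known HIF site in its promoter, had the lowest level of the 10. It lies on chr8:45996902-46005707, minus strand, and was counted 107, 86 and 95 times in Ctrl and 126, 118 and 48 times in DTR, which is 4.37, 3.60 and 3.34 CPM and 3.66, 3.80 and 2.11 CPM. DTR replicate 3 was lowest and the other 2 DTR libraries lay within the Ctrl range. The log2 fold change was -0.23 (95% interval -0.96 to 0.49, adjusted p = 0.855, edgeR quasi-likelihood, Benjamini-Hochberg), and it was -0.01 without DTR replicate 3 and -0.38 without DTR replicate 2. Ankrd37 overlaps Ufsp2, a gene on the opposite strand with 927 to 1531 counts, and the counting used strand information according to the methods.

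Kdm3a codes for a histone demethylase that removes methyl groups from lysine 9 of histone H3 and needs oxygen to do so. It lies on chr6:71588972-71632990, minus strand, and measured 157, 150 and 152 CPM in Ctrl and 129, 171 and 159 CPM in DTR, in replicate order. The lowest and the highest value were both in DTR. Both means were 153 CPM, with SDs of 3.62 and 21.7 (n = 3 each). The log2 fold change was 0.00, and its 95% interval of -0.26 to 0.26 is among the narrowest of the 10 (adjusted p = 0.998, edgeR quasi-likelihood, Benjamini-Hochberg). Its relatives Kdm3b and Jmjd1c were at 0.00 and 0.13. Over 12 other genes for JmjC demethylases the median was 0.02, from Kdm2b at -0.24 to Kdm6a at 0.41. Of the 12, 0 passed the adjusted test and 1 was higher in DTR at an unadjusted p under 0.05 (3.81% of all genes).

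Kdm3a served as a reference within each library, chosen after its values were seen. The ratio of Ero1l to Kdm3a counts was 0.997, 0.827 and 0.780 in Ctrl and 0.772, 0.689 and 0.603 in DTR. The groups did not overlap (exact permutation test, p = 0.1, adjusted over 9 ratios 0.45). The ratios of Bnip3, Fam162a and Higd1a to Kdm3a overlapped between groups, with log2 differences of -0.50, -0.41 and -0.30. An exact test of 3 against 3 libraries cannot pass 0.05.

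**Figure D2:**
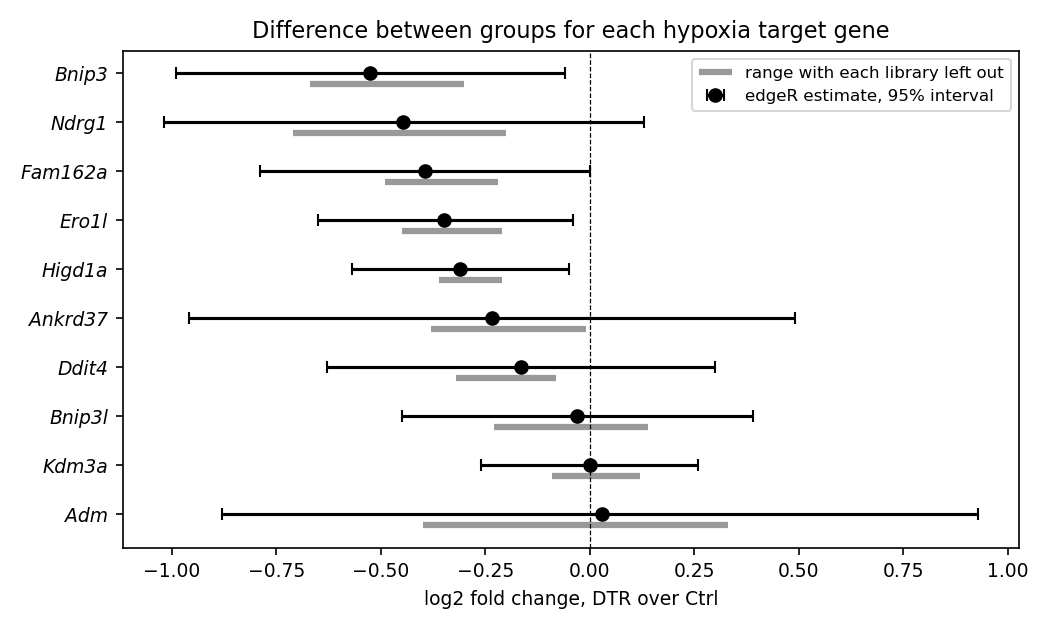
Points show the log2 fold change of DTR over Ctrl (horizontal axis) from edgeR, black lines its 95% interval and grey bars the range of estimates with each library left out in turn, for the 10 genes ordered from lowest to highest. Bnip3, Ero1l and Higd1a have intervals below 0 before adjustment, and the grey bars of Bnip3l, Kdm3a and Adm cross 0.

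The genes did not vary as 1 block over the libraries. Each gene's log2 level was set against its own mean over the 6 libraries, and the mean of these deviations over the 10 genes was 0.367, 0.046 and -0.033 in Ctrl replicates 1 to 3 and -0.178, -0.043 and -0.159 in DTR replicates 1 to 3. Ctrl replicate 1 was thus far above the other 5, and it was the highest library for 6 of the 10 genes. DTR replicate 3 was the lowest for 5. Without Ctrl replicate 1, 0 of the 10 genes reached an unadjusted p under 0.05 by edgeR, beside 3.19% of all genes in the lower direction, and the median log2 fold change was -0.16.

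Bnip3, Ero1l, Higd1a and Fam162a had similar profiles. Pearson's r over the 6 libraries was 0.98 between Bnip3 and Ero1l, 0.95 between Bnip3 and Higd1a and 0.91 between Fam162a and Higd1a. Ankrd37 ran with Fam162a (r = 0.94) and Bnip3l with Kdm3a (r = 0.88). Over all 45 pairs r ranged from -0.48 to 0.98 with a median of 0.41, and 9 pairs had r of at least 0.8. Adm was apart, with r = -0.14 to the mean of the other 9. These correlations describe 6 libraries, include the difference between groups and carry no test.

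**Figure D3:**
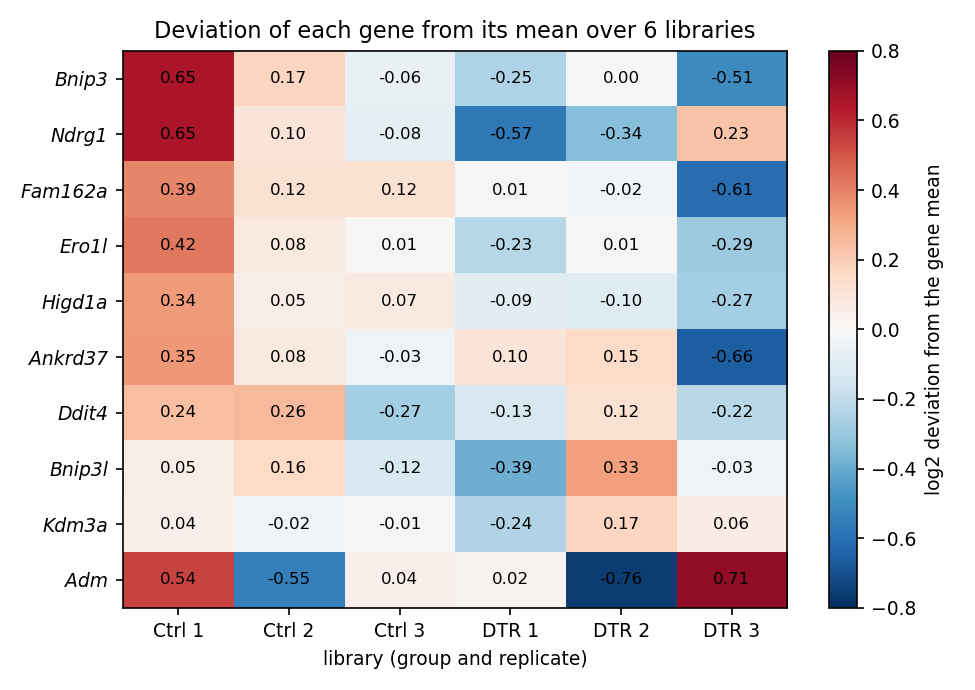
Each cell gives the log2 deviation of 1 gene (rows) in 1 library (columns) from that gene's mean over 6 libraries, in red for above and blue for below. Ctrl replicate 1 is red for all 10 genes, up to 0.65 for Bnip3 and Ndrg1, and Adm follows its own pattern with 0.71 in DTR replicate 3.

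Markers of other cell types were measured beside these genes. The summed level of 5 markers of mural cells was 38.1, 15.8 and 25.5 CPM in Ctrl and 12.3, 17.3 and 9.52 CPM in DTR, in replicate order, and over 6 libraries it ran with Higd1a (r = 0.94), Ero1l (r = 0.92), Bnip3 (r = 0.88) and Fam162a (r = 0.85). Its defining member Rgs5 was at most 1.06 CPM, so most of the sum came from other genes of the list. Of the 5, 4 were tested, with 3 lower and 1 higher in DTR. Whether this sum follows mural cells was not tested. The 5 endothelial markers summed to 11.6 to 18.8 CPM in Ctrl and 13.2 to 78.8 CPM in DTR, and the highest, in DTR replicate 3, stood beside the lowest Bnip3, Fam162a, Ero1l, Higd1a and Ankrd37. Sums for 8 macrophage markers were 91.6 to 153 CPM in Ctrl and 100 to 105 CPM in DTR. The 6 neutrophil markers summed to 7.67, 1.88 and 1.33 CPM in Ctrl and 1.83, 1.38 and 1.67 CPM in DTR, with Ly6g at 0 in every library. The highest was Ctrl replicate 1, where the 10 genes were also highest on average, and over 6 libraries the sum ran with Bnip3 (r = 0.78), Higd1a (r = 0.76), Ero1l (r = 0.75) and Ndrg1 (r = 0.73). The 5 T cell markers summed to 3.71 to 23.2 and 6.56 to 10.4 CPM. Their part in the values of the 10 genes was not tested.

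Per kilobase of annotated exon, the scale on which genes can be compared with each other, Fam162a was the most abundant at 98.6 CPM per kilobase (mean of 6 libraries, SD 20.7). Bnip3 followed at 36.9, Ero1l at 22.5, Kdm3a at 18.6 and Higd1a at 18.5. Lower were Bnip3l at 11.7, Adm at 7.72, Ddit4 at 5.79, Ndrg1 at 5.37 and Ankrd37 at 2.26 CPM per kilobase. The ranges of neighbours in this order were separate after Fam162a, after Higd1a and after Ndrg1, and overlapped for all other neighbours. With coding length or no length, 2 and 3 of the 10 genes kept their place in the order.

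Set beside other hypoxia-induced genes outside glycolysis, the 10 genes had a lower median. The 26 others had a median log2 fold change of -0.09, with 17 lower and 9 higher in DTR and 0 past edgeR's adjusted test. This median turned to 0.02 without Ctrl replicate 1 and was -0.21 without Ctrl replicate 2. With the span offset it was -0.18, where the median of all genes was -0.07. At an unadjusted p under 0.05, 4 were lower (4.11% of all genes) and 1 was higher (3.81% of all genes). In 3 of the 26 every DTR library was below every Ctrl library (8.19% of all genes). In 1 every DTR library was above every Ctrl library (6.3% of all genes). Car9, which codes for the carbonic anhydrase CAIX, was 65.8, 63.9 and 38.1 CPM in Ctrl and 24.7, 26.3 and 20.4 CPM in DTR, without overlap. Its log2 fold change was -1.23, more than that of any of the 10, with a Benjamini-Hochberg adjusted p of 0.602 by edgeR and 0.000245 by DESeq2's Wald test. Wsb1, for a ubiquitin ligase adaptor, was at the other end with 0.42.

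The 21 glycolytic hypoxia-induced genes had a median of -0.28, next to the -0.27 of the 10 genes, and 20 of them were lower in DTR. They ran from Gapdh at -0.82 to Pfkfb4 at 0.29, with 10 lower at an unadjusted p under 0.05 (4.11% of all genes) and 12 with every DTR library below every Ctrl library (8.19% of all genes). Gapdh, at 338 ± 118 CPM in Ctrl and 191 ± 53.7 CPM in DTR (SD, n = 3 each), was at -0.51 without Ctrl replicate 2. Words shared with other genes were counted for the 10 genes only, so reads of Gapdh lost in this way were not measured. Whether the lists differ from each other was not tested. The list of HIF subunits and oxygen sensors had a median of -0.02 over 6 tested of 7 (Hif3a was not tested). The prolyl hydroxylase genes Egln1 and Egln3, which are HIF targets themselves, were counted among the 26 others above and are named here after their values were seen. Egln1, for the main oxygen sensor PHD2, was 147 ± 28.0 CPM in Ctrl and 104 ± 12.7 CPM in DTR (SD, n = 3 each) without overlap, a log2 fold change of -0.49 (adjusted p = 0.602, edgeR quasi-likelihood, Benjamini-Hochberg). Its adjusted p was 0.356 by DESeq2's Wald test and 0.0499 by the same test with the span offset. Egln3, near 2 CPM, was at -0.53, and Egln2 was at -0.04. Hif1a measured 122 ± 10.9 CPM in Ctrl and 108 ± 1.72 CPM in DTR, a log2 fold change of -0.17 (adjusted p = 0.652, edgeR quasi-likelihood, Benjamini-Hochberg). Epas1, which codes for the HIF2 alpha subunit, was at -0.42, Arnt at 0.06 and Vhl at 0.17. Without Ctrl replicate 1, where it was highest, Epas1 was at -0.01 and Hif1a at -0.10. Egln3 ran from -1.01 without Ctrl replicate 2 to -0.18 without Ctrl replicate 3. HIF is controlled mainly at the level of the protein, which these libraries do not measure.

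**Figure D4:**
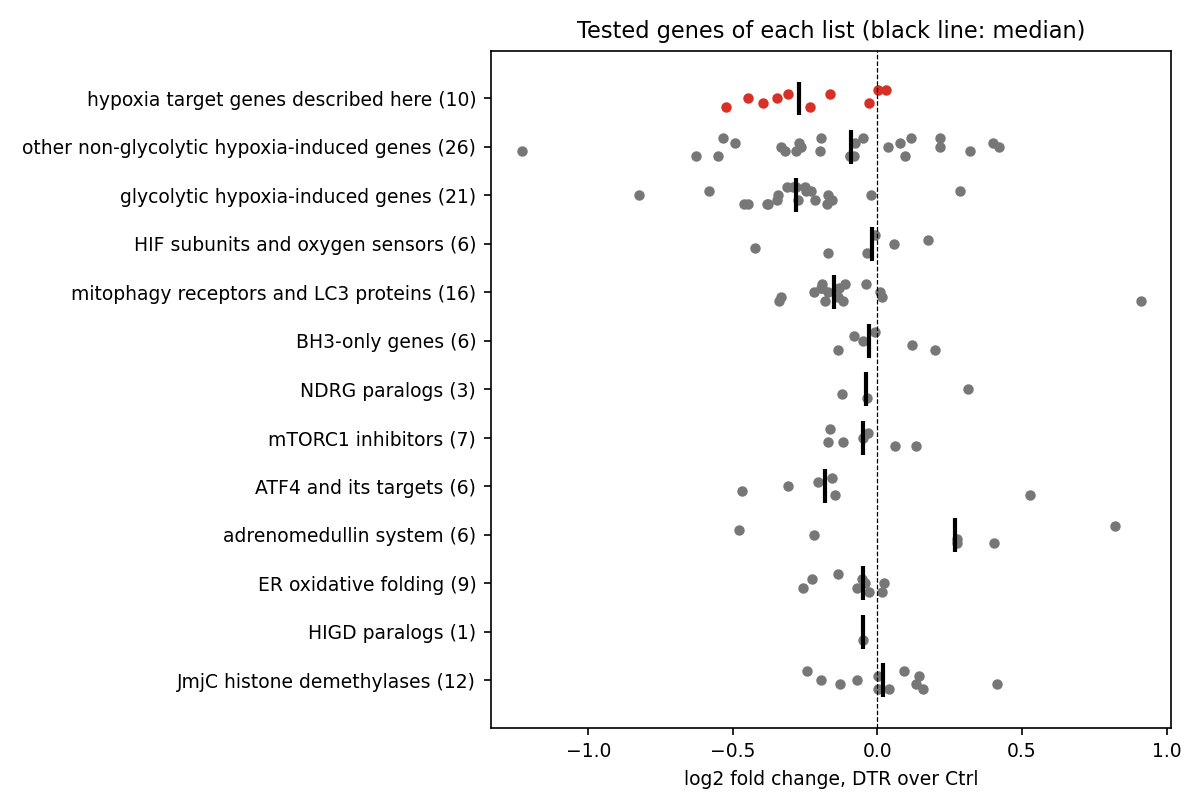
Each point is a tested gene of the list named on the vertical axis (number tested in brackets), placed at its log2 fold change of DTR over Ctrl, with black lines for list medians. The 10 genes described here (red, median -0.27) lie near the glycolytic genes (median -0.28), and the other lists have medians between -0.18 and 0.27.

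The 5 genes with the highest correlation to the mean deviation of the 10, among those with a mean of at least 10 CPM, were Trnau1ap (r = 0.985), Rdx (r = 0.983), Zfp35 (r = 0.975), Fam129b (r = 0.969) and Aldh18a1 (r = 0.968), over 6 libraries. With r of at least 0.8 there were 196 of 8782 such genes, 6 of 20 glycolytic genes and 7 of 18 other hypoxia-induced genes. Fam129b, the lowest of the 5 in log2 fold change, was at -0.35.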

How the data were processed

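RNA-seq counts of 6 libraries, 3 Ctrl and 3 DTR, were analysed, with groups taken from the sample labels. The authors prepared stranded libraries from total RNA, trimmed reads with cutadapt 3.4, aligned them to GRCm38 with STAR 2.7.3a and deposited raw counts per gene from featureCounts 2.0.1 (versions per the submitters' processing notes). Beside the counts, the authors deposited a score for each library, the count divided by the authors' size factor and rounded, and the authors' comparison (fold changes, p-values, dispersions and Cook's distances), neither of which was used. There were 0 per-sample columns of other samples.

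The 10 genes and all lists were chosen with earlier results of these data known. Genes were filtered by edgeR's filterByExpr (minimum count 10, minimum total 15), scaled by TMM and compared by edgeR's quasi-likelihood test without covariates, two-sided, with Benjamini-Hochberg adjustment over 15133 genes at a threshold of 0.05. Exact permutation tests and deviations used log2(CPM + 0.1). Named are the 10 genes, the extremes of each list, paralogs, adrenomedullin receptor genes, HIF subunits, the 5 genes most like the 10 in profile, and checks of the labels. Alternatives were other size factors, filters and moderation, DESeq2's Wald test, a replicate block, a loess offset (span 0.5) on genomic span alone, with the block and with DESeq2, and each library left out. A fibroblast-to-melanoma marker covariate was added after seeing the data, which makes 17 alternatives. For levels, coding length and no length replaced exon length. The common dispersion was 0.0662. Same-group libraries differed far beyond sampling noise (chi-square per degree of freedom of 46.9 to 74.5), so none was counted as a duplicate. Floors cover counting error only. Steps were tested on simulated data. Coordinates and exons come from GENCODE M21 (GRCm38) and promoters from RefSeq (GRCm38.p6). R 4.3.3, edgeR 4.0.16, limma 3.58.1 and DESeq2 1.42.0 were used.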

Additional observations from a re-analysis of the deposited data

How the results depend on the processing

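Under all 17 alternatives 0 of the 10 genes passed the adjusted test, where they were given an adjusted p, and their median log2 fold change stayed below 0, from -0.36 without DTR replicate 2 to -0.16 without Ctrl replicate 1. The number of all genes called was 0 in edgeR's quasi-likelihood test, 31 in DESeq2's Wald test and 49 in that test with the span offset, which gave no adjusted p to 6 of the 10. That last fit came nearest the threshold, with adjusted p of 0.0701 for Bnip3, 0.0891 for Ero1l and 0.104 for Fam162a, and over all alternatives the adjusted p of these 3 reached 0.852. It called Egln1 (0.0499) and Eno1 (0.0437), chosen for that after their values were seen. Leaving out 1 library in turn gave 0 to 2 genes called, the 2 without Ctrl replicate 1. The 7 genes Bnip3, Ndrg1, Ddit4, Ankrd37, Fam162a, Ero1l and Higd1a kept their direction under each alternative, though Ankrd37 was at -0.01 without DTR replicate 3. Bnip3l turned with library size alone (0.00), with the marker covariate (0.02), which was chosen after seeing the data, and over left-out libraries (-0.23 to 0.14). Adm turned with the replicate block (-0.02), DESeq2 with span offset (-0.01), the covariate (-0.37) and left-out libraries (-0.40 to 0.33). Kdm3a turned with the replicate block (-0.01), the span offset (-0.08), both together (-0.09), DESeq2 with span offset (-0.10) and left-out libraries (-0.09 to 0.12). Over left-out libraries the medians of the other hypoxia-induced genes (-0.21 to 0.02), the adrenomedullin system (-0.07 to 0.53), the HIF subunits and sensors (-0.07 to 0.01), BH3-only genes (-0.12 to 0.07), NDRG paralogs (-0.12 to 0.11), mTORC1 inhibitors (-0.15 to 0.08) and JmjC demethylases (-0.02 to 0.07) crossed 0, and that of oxidative folding ran from -0.15 to -0.02. Among other named genes, Atf3 (-0.24), Bmf (-0.32), Ndrg2 (0.11) and Ero1lb (0.16) turned without DTR replicate 3, Deptor (-0.02) and Egln2 (0.02) without Ctrl replicate 1 and Pdia3 (-0.02) without Ctrl replicate 2, while Map1lc3a was at -0.10 without Ctrl replicate 1 and Kdm2b at -0.06 without DTR replicate 3. Arnt ran from 0.00 to 0.14, Pfkfb4 from 0.14 to 0.41 and Jmjd1c from 0.06 to 0.22. The span offset moved the median of all genes to -0.07, and to -0.08 in DESeq2. Under these 2 settings the median of the 10 genes was -0.29 and -0.34, of the other hypoxia-induced genes -0.18 and -0.20, of mitophagy genes -0.21 and -0.25, of mTORC1 inhibitors -0.13 and -0.17, of oxidative folding -0.12 and -0.15 and of JmjC demethylases, which turned, -0.07 and -0.09. The cause was not tested. Of the 10 genes, 2 kept their rank of level with coding length and 3 with no length.

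Same-numbered Ctrl and DTR libraries had deviations correlated at 0.114, 0.132 and -0.042, so the numbers were not taken to pair them. With the replicate as a block, edgeR called 0 genes and 0 of the 10, whose lowest adjusted p was 0.575 and median -0.29, with 10 of 10 lower. Depth limits Ankrd37 most, at 48 to 126 counts per library.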
